A study of Homo sapiens with 26 samples.

Results

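The genes described here carry out fatty acid oxidation and ketone body formation, together with a few genes that regulate these pathways or are known targets of the nuclear receptor PPARA. They were taken as a list of 35 gene symbols matched to the Ensembl identifiers of the deposited count tables. All 35 were found, of 62679 genes present in all 3 tables. By role they comprise 5 genes of fatty acid activation, 5 of the carnitine shuttle, 11 of the mitochondrial oxidation spiral, 3 of electron transfer, 4 of the peroxisome, 1 of ketone body metabolism and 6 regulators or PPARA targets.

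Poly(A) RNA was sequenced from 3 established human pancreatic ductal adenocarcinoma (PDAC) cell lines, Panc10.05, BxPC3 and ASPC1 (usually written AsPC-1), after the level of the transcription factor HNF4A had been changed. In Panc10.05 and BxPC3, doxycycline switched on 1 of 2 inducible HNF4α isoforms, P1-a2 from the P1 promoter's set or P2-a8 from that of P2, and the control (NC) was a GFP construct in Panc10.05 and a construct labelled EV in BxPC3. Doxycycline was given to every induced group and to the controls, at 500 ng/mL in BxPC3. In Panc10.05 the P1-a2 and NC groups got 25 ng/mL and the P2-a8 group 12.5 ng/mL, so that isoform and dose cannot be told apart in that line. In ASPC1, CRISPR interference, in which a guide RNA (sg) brings an inactive Cas9 to a promoter and lowers its transcription, was aimed at P1 (guides sgP1E and sgP1J), at P2 (sgP2D and sgP2G) or at both (sgDual2 and sgDual3), with a control guide, sgNC. All lines were grown in RPMI-1640 with 10% fetal bovine serum. Neither the promoter that drives the constructs, nor whether a line is 1 clone, nor the time of treatment is given in the sources used here. Each guide and each induced or control group had 2 libraries, which gives 4 libraries for sgP1, sgP2 and sgDual. Library totals ran from 26079388 to 50662077 counts. The labels do not say whether replicate libraries came from separate cultures, so the p-values measure the spread between these libraries, which may be technical. In sgP1, sgP2 and sgDual the libraries of 2 guides were fitted as 1 group, so that their spread also holds differences between guides.

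HNF4A itself, the gene targeted in every group, checked the labels. It was at 0.240 and 0.0580 CPM (counts scaled to library size) in the NC libraries of Panc10.05, 10.7 and 12.98 CPM under P1-a2 and 37.6 and 37.6 CPM under P2-a8. In BxPC3 the values were 1.08 and 0.464 CPM in NC, 9.76 and 11.6 CPM under P1-a2 and 12.6 and 14.2 CPM under P2-a8. ASPC1 cells had 206 and 219.8 CPM with sgNC and 3.19, 10.3, 4.83 and 13.6 CPM with sgDual. With sgP1 they had 144, 146, 118 and 109 CPM (adjusted p = 0.615, between 0.203 and 0.987 over the alternatives) and with sgP2 93.9, 91.4, 84.0 and 76.7 CPM (adjusted p = 0.0751, between 0.000223 and 0.332). Every induced library lay above its controls and every library with a targeting guide lay below both sgNC libraries, but neither the sgP1 nor the sgP2 difference passed the test. Adjusted p-values are from edgeR's quasi-likelihood test with Benjamini-Hochberg adjustment over all genes tested, and a gene is called higher or lower where that value is under 0.05. A log2 fold change is followed by ± its standard error. Counts per gene do not separate P1 from P2 transcripts.

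A long-chain fatty acid is first joined to coenzyme A by an acyl-CoA synthetase. The acyl group is then passed to carnitine at the outer mitochondrial membrane, exchanged across the inner membrane and passed back to coenzyme A inside, where repeated cycles of dehydrogenation, hydration, dehydrogenation and thiolysis release acetyl-CoA. Electrons from the first step reach the respiratory chain through the electron transfer flavoprotein, very long and branched chains are shortened in peroxisomes, and in liver acetyl-CoA can be turned into ketone bodies. In hepatocytes and enterocytes many of these genes are under the control of PPARA, its coactivator PPARGC1A and HNF4α, and HNF4α and PPARA both bind direct repeats of a hexamer spaced by a single base.

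The 250 bases upstream of the RefSeq start site (GRCh38.p14) are printed for 4 genes whose counts moved in more than a single line. They are those of SLC25A20 (chr3:48898883-48899132, minus strand), a member that rose in every induction and fell with sgDual; of HADHB (chr2:26244689-26244938, plus strand), which begins head to head with HADHA; of BDH1 (chr3:197573344-197573593, minus strand), which fell in Panc10.05 and with sgDual; and of CIDEB (chr14:24307978-24308227, minus strand), a lipid droplet gene outside the list. BDH1 and CIDEB each have another RefSeq start, whose window held no match to the motifs searched and is not printed. Capitals mark letters that match a searched motif.
SLC25A20: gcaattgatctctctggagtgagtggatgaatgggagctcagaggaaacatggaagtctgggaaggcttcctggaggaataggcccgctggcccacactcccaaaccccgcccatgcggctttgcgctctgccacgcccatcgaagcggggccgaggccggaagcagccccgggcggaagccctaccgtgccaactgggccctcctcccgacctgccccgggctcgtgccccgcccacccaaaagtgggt
HADHB: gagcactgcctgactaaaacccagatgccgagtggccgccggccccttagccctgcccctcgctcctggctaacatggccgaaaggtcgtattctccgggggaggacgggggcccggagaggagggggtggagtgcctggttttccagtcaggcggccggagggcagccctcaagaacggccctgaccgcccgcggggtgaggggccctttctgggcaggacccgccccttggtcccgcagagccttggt
BDH1: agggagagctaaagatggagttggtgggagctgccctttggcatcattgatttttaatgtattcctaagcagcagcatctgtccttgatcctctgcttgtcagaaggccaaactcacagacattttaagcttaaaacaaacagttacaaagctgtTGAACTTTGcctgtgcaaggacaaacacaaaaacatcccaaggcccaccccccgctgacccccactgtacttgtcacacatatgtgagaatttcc
CIDEB: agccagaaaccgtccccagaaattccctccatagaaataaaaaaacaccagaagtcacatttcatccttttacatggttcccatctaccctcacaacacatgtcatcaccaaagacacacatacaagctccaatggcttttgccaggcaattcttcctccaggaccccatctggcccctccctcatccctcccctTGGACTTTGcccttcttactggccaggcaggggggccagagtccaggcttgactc

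The 4 motifs searched on both strands were CAAAGTCCA, CAAAGTTCA, CAAAGGTCA and a direct repeat of AGGTCA with any 1 base between. The first 3 are forms of an HNF4α site, and the repeat, an element of both factors, holds CAAAGGTCA where the base between is A. Of 35116 RefSeq windows from 250 bases before to 50 after a start, 0.384%, 0.296%, 0.407% and 0.023% held them, in that order, and 1.096% held any of them. RefSeq gave 42 windows for 29 of the 35 members, and a match was found in 1 of them. That match was CAAAGTTCA in the BDH1 window printed, read on the opposite strand (so that its reverse complement is in capitals) from 95 bases before the start, and the CIDEB window printed held CAAAGTCCA, read on the opposite strand from 55 bases before the start. Because only 1 member window matched, nothing is read from it about the list. CIDEB was picked for printing from genes outside the list, for which the share of windows with a match was not counted. Nothing is read from its match either. No match was found in the windows of SLC25A20 or HADHB, which says only that these letters are absent there. The RefSeq starts of HADHA and HADHB, which encode both subunits of the mitochondrial trifunctional protein, lie 307 bases apart on opposite strands, so the HADHB stretch printed above lies between them.

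P1-a2 gave the larger number of called members in both induced lines, as it did of all genes, so this order is not particular to the list. In Panc10.05, 27 of 35 members were called under P1-a2 against NC, 17 higher and 10 lower, where 62% of all genes tested were called (31.5% higher and 30.5% lower). Under P2-a8, 20 were called, 15 higher and 5 lower, where 46.2% of all genes were (23.7% and 22.5%). In BxPC3, where PPARGC1A had too few counts to be tested, 21 of 34 members were called under P1-a2, 19 higher and 2 lower, beside 32% of all genes (17.1% and 14.9%). Under P2-a8 in BxPC3, 12 members were higher and 0 lower, beside 6.99% of all genes (4.3% and 2.69%). At an unadjusted p under 0.05 there were 18 members, 1 of them lower, and DESeq2 called 11 higher and 0 lower. The median log2 fold change over members was 0.22 and 0.05 in Panc10.05 (P1-a2 and P2-a8) and 0.26 and 0.13 in BxPC3, where the medians over all genes were 0.02, 0.00, -0.01 and 0.01. The BxPC3 count for P2-a8 was fragile: it was 3 without NC replicate 1, 2 without NC replicate 2, 8 without P2-a8 replicate 1 and 5 without P2-a8 replicate 2. Of these 12, ANGPTL4 alone kept its call in every alternative run.

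In ASPC1 most calls against the control came with sgDual. With sgDual against sgNC, 16 of 35 members were called, 5 higher and 11 lower, beside 35.6% of all genes (17.8% in each direction), and the median over members was -0.19 where that over all genes was 0.00. That count was 4 without sgNC replicate 1, 10 without sgNC replicate 2, 10 without sgDual3 replicate 1 and 7 without both sgDual3 libraries. ACSL5, BDH1 and VNN1 kept their calls in every alternative run, and the other 13 members each lost the call in at least 1. With sgP1, 0 members were called beside 0.265% of all genes (0.1% higher and 0.165% lower). Of the members, 4 had an unadjusted p under 0.05, all lower, and DESeq2 called 2, both lower. With sgP2, 1 member, ECI2, was called, lower, beside 3.42% of all genes (1.66% higher and 1.76% lower), and 8 had an unadjusted p under 0.05. All comparisons of a line share their control libraries, and the heat map of log2 fold changes shows each member in each of them.

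**Figure D1:**
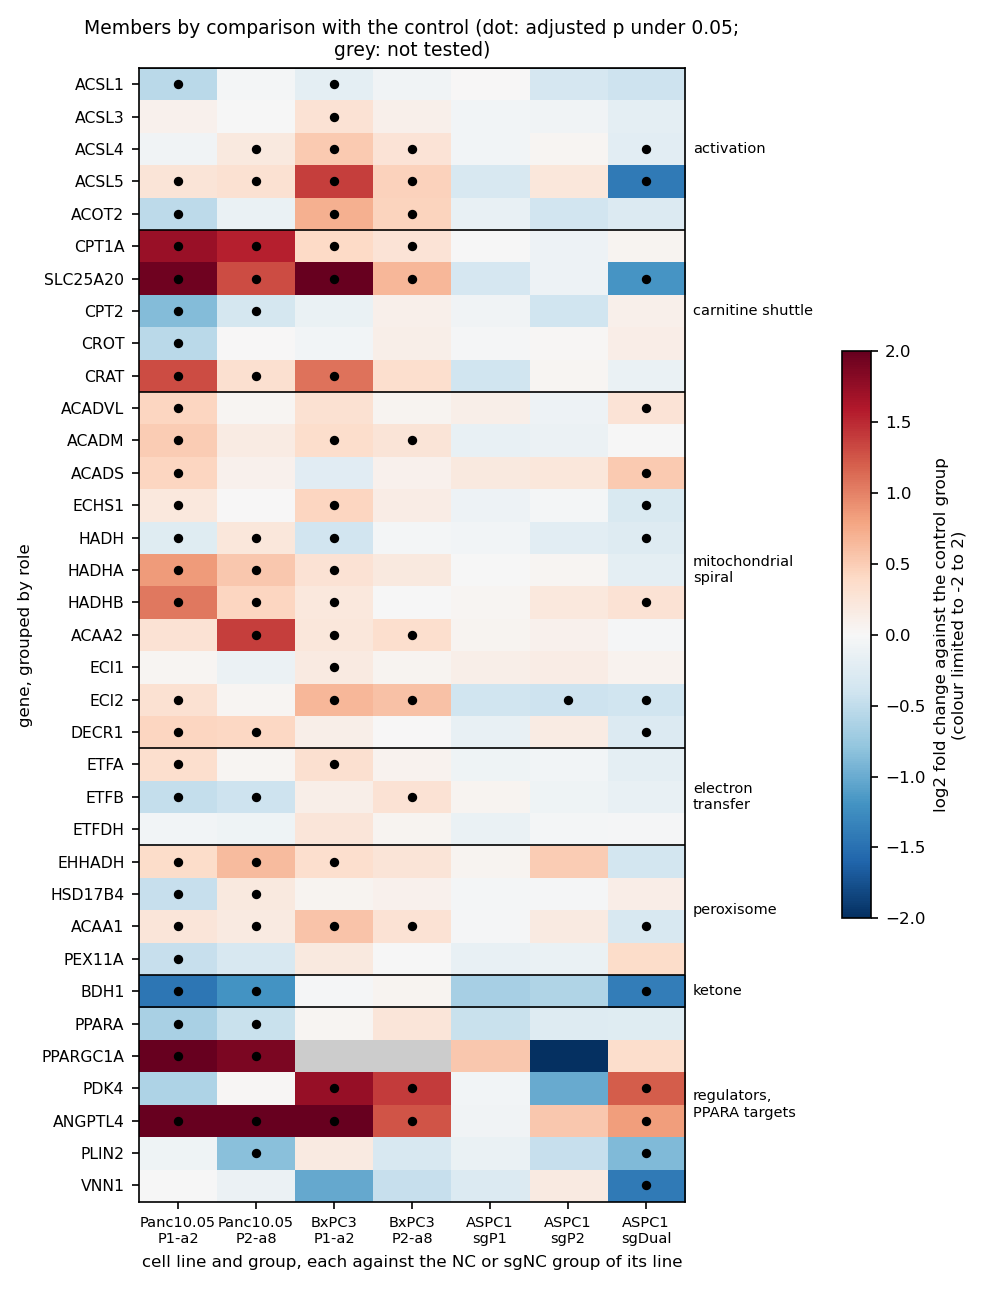
Log2 fold change of the 35 members (rows, grouped by role) in each group against the control group of its cell line (columns), with a dot where the adjusted p is under 0.05 and grey where the gene was not tested. SLC25A20 and ANGPTL4 are red with a dot in all 4 induced columns, the sgP1 column holds no dot, and in the sgDual column 11 dots lie on blue and 5 on red.

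Before induction or repression, the members stood at different levels in the 3 lines. The tables were normalized separately, so these levels are set side by side without a test. Per kilobase of exon, ECHS1, the enoyl-CoA hydratase of short chains, had the highest control level in each line, at 120.3 CPM per kb in ASPC1, 82.6 in BxPC3 and 100.2 in Panc10.05, while PPARGC1A had the lowest, at most 0.045 CPM per kb. ASPC1 had 248.5 CPM of VNN1, which encodes a pantetheinase and is a known PPARA target, beside 0.685 CPM in BxPC3 and 2.81 CPM in Panc10.05. CPT1A stood at 331, 117 and 15.2 CPM in the control groups of ASPC1, BxPC3 and Panc10.05, BDH1 at 89.1, 26.2 and 5.16 CPM, and PDK4 at 30.1, 0.928 and 0.494 CPM. Other members were lowest in ASPC1, among them ACSL1, at 14.1, 57.1 and 52.9 CPM in the same order of lines, and ACSL4, at 62.2, 142 and 186 CPM. ACAA2, the last thiolase of the mitochondrial spiral, was at 2.26 CPM in Panc10.05 against 53.7 CPM in BxPC3 and 43.8 CPM in ASPC1. HADHB differed least, from 76.6 CPM in Panc10.05 to 93.2 CPM in BxPC3.

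In Panc10.05 all 5 genes of the carnitine shuttle were called under P1-a2, 3 higher and 2 lower, beside 31.5% and 30.5% of all genes. SLC25A20, the inner membrane carrier that exchanges acylcarnitine for carnitine, was at 4.23 and 3.04 CPM in the NC libraries of Panc10.05, 14.05 and 14.3 CPM under P1-a2 and 9.25 and 8.79 CPM under P2-a8. In BxPC3 it was at 4.61 and 4.64 CPM in NC, 20.05 and 20.4 CPM under P1-a2 and 6.92 and 7.84 CPM under P2-a8. All 3 groups were separate in both lines, in the order NC, P2-a8, P1-a2. Against NC, SLC25A20 rose under P1-a2 in Panc10.05 (log2 fold change 1.95 ± 0.13, adjusted p = 6.22e-17) and in BxPC3 (2.13 ± 0.12, adjusted p = 2.78e-07). Under P2-a8 it rose by less, by 1.30 ± 0.14, adjusted p = 9.89e-11 in Panc10.05 and 0.67 ± 0.12, adjusted p = 0.00751 in BxPC3. The BxPC3 rise under P2-a8 lost its call without either NC library or without P2-a8 replicate 2 (adjusted p up to 0.0702).

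With sgDual SLC25A20 fell. Its sgNC libraries held 19.6 and 15.5 CPM, the sgDual2 libraries 4.42 and 5.26 CPM and the sgDual3 libraries 10.8 and 10.6 CPM, so that all 4 were below both controls and both guides were separate (log2 fold change -1.17 ± 0.29, adjusted p = 0.00741). The call was lost without sgNC replicate 1 and when only the sgDual and sgNC libraries were fitted (adjusted p up to 0.0992). The sgP1 libraries, at 15.2, 12.01, 15.6 and 13.04 CPM, and the sgP2 libraries, at 15.4, 14.7, 19.7 and 15.9 CPM, were not called against sgNC.

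CPT1A, which passes the acyl group to carnitine and sets the pace of mitochondrial entry, rose in all 4 inductions. In Panc10.05 it was at 16.1 and 14.3 CPM in NC, 48.6 and 52.5 CPM under P1-a2 (log2 fold change 1.73 ± 0.08, adjusted p = 6.47e-22) and 46.6 and 42.6 CPM under P2-a8 (1.55 ± 0.08, adjusted p = 1.5e-19). In BxPC3, where the control level was higher, the log2 fold changes were 0.39 and 0.27. The second of these was not called without P2-a8 replicate 1 or either NC library (adjusted p up to 0.172). CRAT, the carnitine acetyltransferase of short chains, rose mainly under P1-a2. It went from 19.96 and 22.7 CPM to 50.1 and 55.6 CPM in Panc10.05 (log2 fold change 1.31 ± 0.08, adjusted p = 4.23e-18) and from 27.7 and 29.2 CPM to 53.3 and 67.8 CPM in BxPC3 (1.09 ± 0.11, adjusted p = 3.16e-05). Under P2-a8 CRAT was at 26.2 and 27.2 CPM in Panc10.05, a log2 fold change of 0.32, and at 34.5 and 37.4 CPM in BxPC3, which was not called. Every P1-a2 library of both lines was above every P2-a8 library of its line.

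The other shuttle genes went down in Panc10.05. CPT2, which returns the acyl group to coenzyme A at the inner membrane, was at 39.8 and 45.3 CPM in NC and 22.2 and 24.4 CPM under P1-a2 (log2 fold change -0.86 ± 0.08, adjusted p = 1.39e-12), and it fell under P2-a8 too (-0.35). CROT, the peroxisomal carnitine octanoyltransferase, fell under P1-a2 (-0.53). Neither was called in BxPC3 or with any guide against sgNC. The first transferase of the shuttle and the last were thus called in opposite directions in Panc10.05. The plot of 9 members in every library shows CPT1A, SLC25A20 and CRAT among them.

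**Figure D2:**
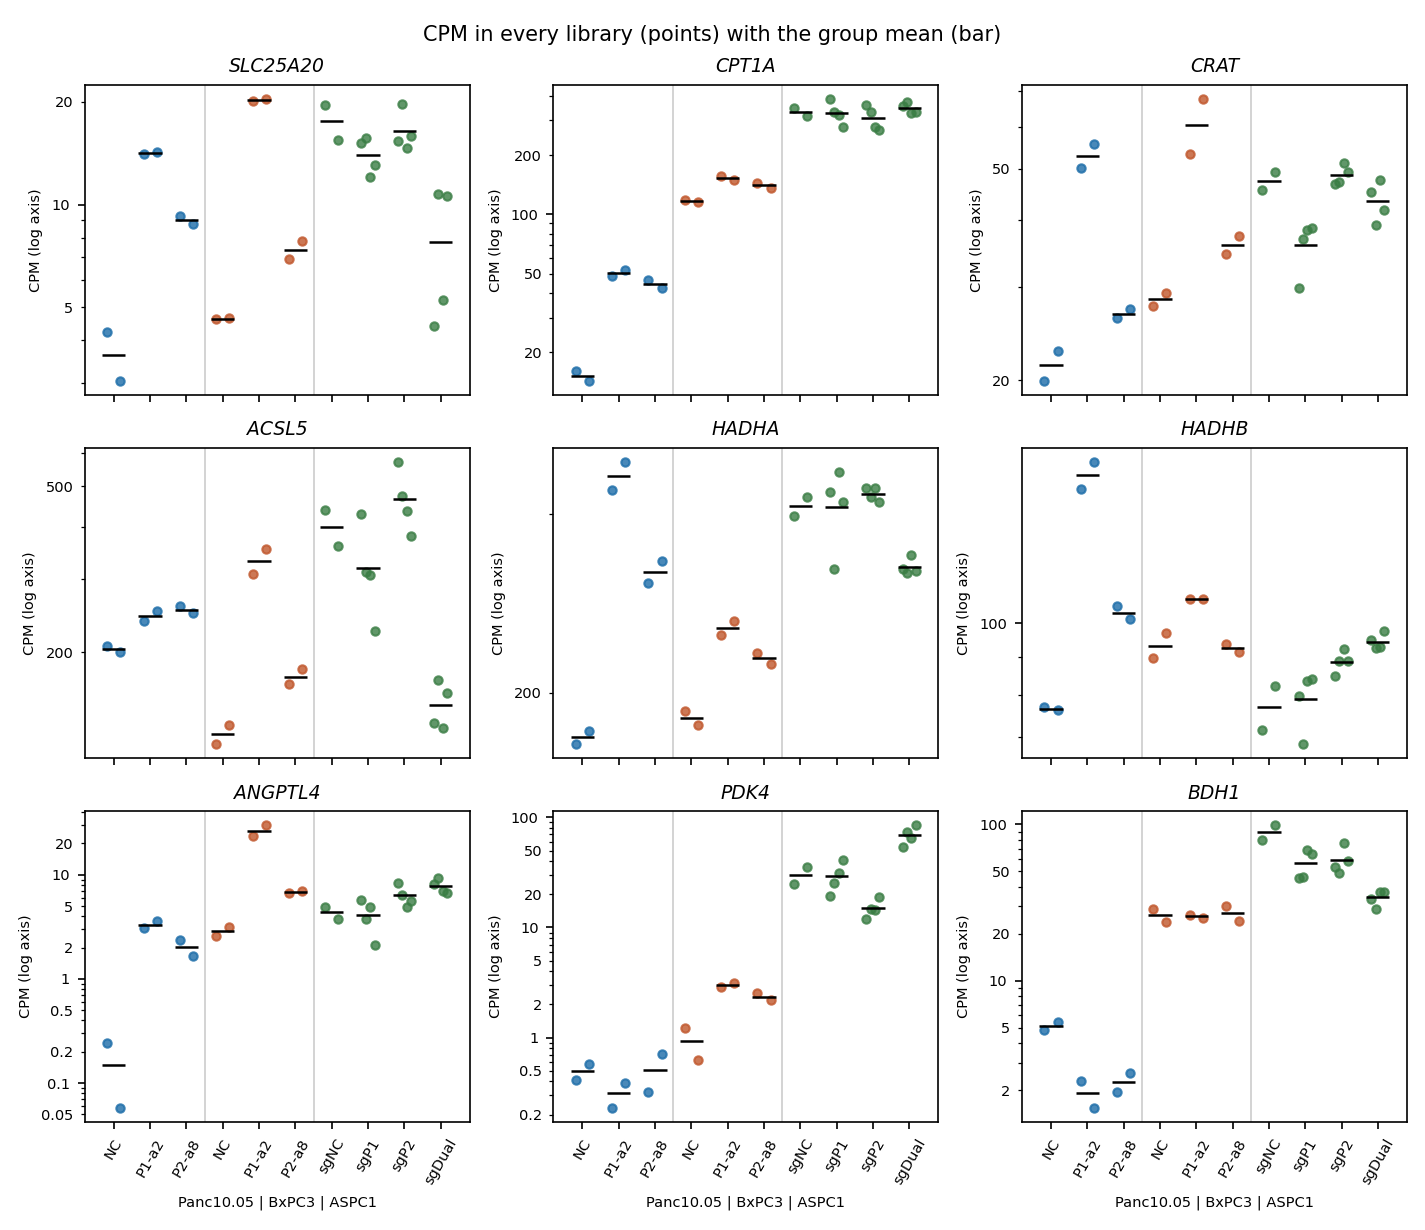
CPM on a log axis in each of the 26 libraries (points, coloured by cell line) for 9 members, with the group mean as a bar. SLC25A20, CPT1A and ANGPTL4 lie higher in every P1-a2 and P2-a8 library than in the NC libraries of the same line, and ACSL5, BDH1 and SLC25A20 lie lower in all 4 sgDual libraries than in both sgNC libraries.

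Among the genes of fatty acid activation, ACSL5, an acyl-CoA synthetase of intestine and liver, had the largest changes. In BxPC3 it was at 120.3 and 134 CPM in NC, 309 and 353 CPM under P1-a2 (log2 fold change 1.38 ± 0.08, adjusted p = 5.53e-07) and 168 and 182 CPM under P2-a8 (0.46 ± 0.08, adjusted p = 0.00534). All 3 groups were separate, and the smaller P2-a8 change lost its call without NC replicate 1 (adjusted p = 0.0614). In Panc10.05 the rises were small, 0.26 under P1-a2 and 0.31 under P2-a8. With sgDual ACSL5 fell from 438 and 361 CPM in the sgNC libraries to 135, 132, 171 and 159.7 CPM (log2 fold change -1.42 ± 0.21, adjusted p = 0.000217), with every sgDual library below every other library of ASPC1. The sgP1 libraries held 430.1, 306, 312 and 224 CPM and the sgP2 libraries 572, 435, 474 and 379.5 CPM, and neither group was called.

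Calls of the activation genes under P1-a2 differed between the lines. Of all 5, ACSL5 included, 4 rose and 1 fell in BxPC3, where 17.1% of all genes were higher and 14.9% lower. In Panc10.05 the 1 that rose was ACSL5, and 2 fell, beside 31.5% of all genes higher and 30.5% lower. ACOT2, a mitochondrial thioesterase that splits acyl-CoA, rose in BxPC3 from 9.74 and 9.92 CPM to 15.9 and 16.2 CPM under P1-a2 (log2 fold change 0.71 ± 0.10, adjusted p = 0.000328) and to 13.96 and 12.9 CPM under P2-a8 (0.45 ± 0.10, adjusted p = 0.0242). In Panc10.05 it fell under P1-a2 (-0.52). The P2-a8 call in BxPC3 was lost without any 1 of the 4 libraries compared (adjusted p up to 0.169). ACSL4, which prefers polyunsaturated chains, rose in BxPC3 under P1-a2 (0.52) and P2-a8 (0.27) and fell with sgDual (-0.21). The ACSL4 call under P2-a8 was lost without either NC library or P2-a8 replicate 2 (adjusted p up to 0.156), and the sgDual call in 10 of 26 alternatives (adjusted p up to 0.253). ACSL1, the broadly used synthetase, fell under P1-a2 in Panc10.05 (-0.54) and in BxPC3 (-0.20), and ACSL3 was called in BxPC3 under P1-a2 (0.29) and in no other comparison with a control. The BxPC3 call of ACSL1 was lost in 7 of 12 alternatives, among them without any 1 of the P1-a2 and NC libraries (adjusted p up to 0.17).

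Most of the 11 genes of the mitochondrial spiral were called higher under P1-a2. In Panc10.05, 8 rose and 1 fell, where 31.5% of all genes were higher and 30.5% lower, and in BxPC3, 7 rose and 1 fell, where 17.1% were higher and 14.9% lower. In Panc10.05 HADHB, the thiolase subunit of the trifunctional protein, was at 76.9 and 76.3 CPM in NC, 152 and 165 CPM under P1-a2 (log2 fold change 1.05 ± 0.06, adjusted p = 1.9e-18) and 105 and 101 CPM under P2-a8, where its log2 fold change was 0.43. All 3 groups were separate. HADHA, its partner subunit, rose beside it, by 0.86 under P1-a2 and 0.54 under P2-a8. In BxPC3 the P1-a2 changes of this pair were smaller, 0.30 for HADHA and 0.21 for HADHB, and the HADHB call was lost without NC replicate 1 or P1-a2 replicate 2 (adjusted p up to 0.202). With sgDual HADHB rose (0.30), while HADHA was at -0.20 and not called. The sgDual call of HADHB was lost without sgNC replicate 1 and without both sgDual3 libraries (adjusted p up to 0.214). Both genes overlap on opposite strands in GENCODE v29, and the strand setting of the counting is not given in the sources used here, so their counts are uncertain.

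Among the dehydrogenases of the first step, ACADVL and ACADM, which act on very long and medium chains, rose under P1-a2 in Panc10.05 (0.44 and 0.51), and ACADM rose in BxPC3 under P1-a2 (0.35) and P2-a8 (0.27). The P2-a8 call of ACADM was lost in 6 of 12 alternatives, among them without any 1 of the 4 libraries compared (adjusted p up to 0.273). With sgDual ACADVL was at 0.27, a call lost without sgDual3 replicate 1, either sgNC library or both sgDual3 libraries (adjusted p up to 0.148). ACADS, which acts on short chains, was at 13.2 and 18.7 CPM with sgNC and 21.6, 23.6, 23.8 and 22.5 CPM with sgDual (log2 fold change 0.52 ± 0.18, adjusted p = 0.0308), a call lost without 4 single libraries, among them sgNC replicate 1, and without either sgDual guide (adjusted p up to 0.372). ECHS1 rose under P1-a2 in Panc10.05 (0.22) and BxPC3 (0.43) and fell with sgDual (-0.30). The call in Panc10.05 was lost without P1-a2 replicate 2 (adjusted p = 0.0531) and the sgDual call without sgNC replicate 1 (adjusted p = 0.0789). HADH, the short-chain hydroxyacyl-CoA dehydrogenase, went the other way from most of the spiral and fell under P1-a2 in Panc10.05 (-0.24) and BxPC3 (-0.38), and it fell with sgDual (-0.26). The HADH call in Panc10.05 was lost without P1-a2 replicate 1 or NC replicate 2 (adjusted p up to 0.308), and the sgDual call in 9 of 26 alternatives (adjusted p up to 0.162).

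ACAA2, the last thiolase, rose under P2-a8. In Panc10.05 it was at 2.38 and 2.14 CPM in NC, 2.64 and 2.87 CPM under P1-a2, which was not called, and 5.83 and 6.03 CPM under P2-a8 (log2 fold change 1.38 ± 0.17, adjusted p = 3.18e-09). In BxPC3 it was at 54.3 and 53.2 CPM in NC and 63.1 and 72.1 CPM under P2-a8 (0.33 ± 0.08, adjusted p = 0.0222), a call lost without either NC library or P2-a8 replicate 2 (adjusted p up to 0.216). Of the enzymes that prepare unsaturated chains, ECI2, an enoyl-CoA isomerase, rose in BxPC3 from 13.8 and 12.9 CPM to 19.1 and 22.8 CPM under P1-a2 (log2 fold change 0.66 ± 0.11, adjusted p = 0.000739) and 20.02 and 20 CPM under P2-a8 (0.59 ± 0.11, adjusted p = 0.0068). The P2-a8 call of ECI2 was lost without NC replicate 2 (adjusted p = 0.0876). ECI2 was also the member called with sgP2, at 23.7, 23.1, 23.6 and 23.8 CPM against 30.8 and 31.9 CPM with sgNC (log2 fold change -0.41 ± 0.09, adjusted p = 0.0247), and it fell with sgDual (-0.39), a call lost without both sgDual2 libraries (adjusted p = 0.0511). The sgP2 call was lost without sgP2D replicate 1, without either sgNC library and without either sgP2 guide (adjusted p up to 0.212). DECR1, the dienoyl-CoA reductase, rose in Panc10.05 under both isoforms (0.43 and 0.41) and fell with sgDual (-0.28), a call lost without either sgNC library or both sgDual3 libraries (adjusted p up to 0.141). ECI1 was called in BxPC3 under P1-a2 (0.18) and lost the call in 10 of 12 alternatives (adjusted p up to 0.22).

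Electron transfer and peroxisomal genes changed by less than 2-fold in every comparison with a control. ETFA, the larger flavoprotein subunit, rose under P1-a2 in Panc10.05 (0.34) and BxPC3 (0.33). Its partner ETFB fell in Panc10.05 under both isoforms (-0.47 and -0.42). In BxPC3 ETFB was at 71.8 and 73.2 CPM in NC and 86.4 and 90.9 CPM under P2-a8 (log2 fold change 0.29 ± 0.06, adjusted p = 0.0112), a call lost without either NC library or P2-a8 replicate 2 (adjusted p up to 0.117). ETFDH, which passes the electrons on to ubiquinone, was the member not called against a control in any line.

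In peroxisomes, ACAA1, the peroxisomal thiolase, rose in all 4 inductions and fell with sgDual (-0.32). Its call under P2-a8 was lost in Panc10.05 without NC replicate 1 or P2-a8 replicate 2 (adjusted p up to 0.141) and in BxPC3 without either NC library or P2-a8 replicate 2 (adjusted p up to 0.115). The sgDual call was lost without sgNC replicate 1, sgDual3 replicate 2 or both sgDual3 libraries (adjusted p up to 0.321). Its largest rise was in BxPC3, from 98.1 and 96.9 CPM in NC to 141 and 148 CPM under P1-a2 (log2 fold change 0.57 ± 0.06, adjusted p = 2.22e-05). EHHADH, the bifunctional enzyme of straight chains, was at 11.1 and 11.4 CPM in NC of Panc10.05 and 17.6 and 17.2 CPM under P2-a8 (log2 fold change 0.63 ± 0.10, adjusted p = 2.07e-06), and it rose under P1-a2 there (0.37) and in BxPC3 (0.34). The P1-a2 calls of EHHADH were lost without P1-a2 replicate 2 in Panc10.05 (adjusted p = 0.133), and without that replicate or either NC library in BxPC3 (adjusted p up to 0.137). HSD17B4, the bifunctional enzyme of branched and very long chains, fell in Panc10.05 under P1-a2 (-0.46) and rose there under P2-a8 (0.19), and PEX11A, which promotes peroxisome division, fell under P1-a2 (-0.46). The rise of HSD17B4 lost its call without P2-a8 replicate 1 (adjusted p = 0.0691), and the fall of PEX11A with DESeq2 and without NC replicate 1 or P1-a2 replicate 2 (adjusted p up to 0.107).

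BDH1, the mitochondrial enzyme that interconverts acetoacetate and 3-hydroxybutyrate, fell both after induction in Panc10.05 and after repression in ASPC1. In Panc10.05 it was at 4.88 and 5.45 CPM in NC, 2.29 and 1.54 CPM under P1-a2 (log2 fold change -1.44 ± 0.19, adjusted p = 1.26e-08) and 1.94 and 2.59 CPM under P2-a8 (-1.20 ± 0.19, adjusted p = 8.66e-07), and both NC libraries were above all 4 others. BxPC3 had 28.8 and 23.7 CPM in NC and 26.4 and 25.4 CPM under P1-a2, and it was not called. In ASPC1 the sgNC libraries held 79.6 and 98.6 CPM and the sgDual libraries 33.4, 37.2, 28.97 and 36.7 CPM (log2 fold change -1.39 ± 0.19, adjusted p = 0.000135). The sgP1 libraries, at 45.7, 69.0, 46.3 and 64.8 CPM, and the sgP2 libraries, at 53.2, 75.6, 48.9 and 58.2 CPM, lay between them and below both controls without being called (adjusted p = 0.234 and 0.115). With sgNC and with every targeting guide, BDH1 was higher in replicate 2 than in replicate 1. The main fit had no term for the replicate number. Of the 9 other ketone genes followed, 7 were tested in Panc10.05, where 6 were lower under P1-a2 and 6 under P2-a8, beside 30.5% and 22.5% of all genes. BDH2, a cytosolic dehydrogenase, was the 1 that rose, under P1-a2 (log2 fold change 0.70). The largest fall was that of OXCT1, which starts ketone body use, from 19.0 and 17.4 CPM to 6.42 and 5.59 CPM under P1-a2 (log2 fold change -1.61 ± 0.11, adjusted p = 1.2e-16).

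Of the PPARA targets, ANGPTL4, a secreted inhibitor of lipoprotein lipase, had the largest changes of the list. In Panc10.05 it was at 0.240 and 0.0580 CPM in NC (10 and 2 counts), 3.06 and 3.57 CPM under P1-a2 (log2 fold change 4.37 ± 0.35, adjusted p = 2.2e-14) and 2.37 and 1.66 CPM under P2-a8 (3.68 ± 0.37, adjusted p = 7.14e-11). BxPC3 libraries held 2.57 and 3.14 CPM in NC, 23.4 and 29.8 CPM under P1-a2 (3.21 ± 0.16, adjusted p = 1.1e-07) and 6.75 and 7.01 CPM under P2-a8 (1.25 ± 0.17, adjusted p = 0.000921). All induced libraries were above their controls. With sgDual ANGPTL4 did not fall: the libraries held 8.15, 6.96, 9.34 and 6.67 CPM against 4.91 and 3.79 CPM with sgNC (log2 fold change 0.84 ± 0.31, adjusted p = 0.0487), a rise that lost its call in 14 of 26 alternatives (adjusted p up to 0.257).

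PDK4, the kinase that shuts off pyruvate dehydrogenase and spares glucose, rose with sgDual in ASPC1 and with both isoforms in BxPC3. There it was at 1.23 and 0.628 CPM in NC, 2.89 and 3.11 CPM under P1-a2 (log2 fold change 1.74 ± 0.29, adjusted p = 0.000886) and 2.55 and 2.17 CPM under P2-a8 (1.39 ± 0.30, adjusted p = 0.0162). The P2-a8 call was lost without P2-a8 replicate 1 or NC replicate 2 (adjusted p up to 0.184). In ASPC1 PDK4 was at 25.0 and 35.2 CPM with sgNC and 54.2, 65.3, 74.1 and 84.6 CPM with sgDual (log2 fold change 1.21 ± 0.29, adjusted p = 0.0058), which lost its call without sgNC replicate 1 (adjusted p = 0.0992). All 4 sgDual libraries were above every other library of the line. In Panc10.05 PDK4 had at most 0.704 CPM in any library and was not called.

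VNN1 and PLIN2 fell with sgDual. VNN1 was at 236 and 261 CPM with sgNC and 88.1, 110.5, 73.7 and 99.0 CPM with sgDual (log2 fold change -1.42 ± 0.18, adjusted p = 7.85e-05), and kept its call in every alternative run. The sgP1 libraries held 187, 217, 205 and 217 CPM and the sgP2 libraries 296, 366, 199.7 and 269 CPM, neither called, and in the induced lines VNN1 had at most 3.12 CPM and was not called. PLIN2, the coat protein of lipid droplets, was at 10.7 and 12.7 CPM with sgNC and 6.14, 6.99, 5.79 and 6.51 CPM with sgDual (log2 fold change -0.88 ± 0.30, adjusted p = 0.0358), a call lost in 9 of 26 alternatives (adjusted p up to 0.191). In Panc10.05 PLIN2 fell under P2-a8, from 2.16 and 2.40 CPM to 1.39 and 1.13 CPM (-0.84 ± 0.23, adjusted p = 0.00251), and was at 2.49 and 1.85 CPM under P1-a2, not called.

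The regulators changed in Panc10.05. PPARGC1A rose there from 0.456 and 0.522 CPM in NC to 3.21 and 3 CPM under P1-a2 (log2 fold change 2.67 ± 0.26, adjusted p = 8.63e-12) and 2.05 and 1.52 CPM under P2-a8 (1.89 ± 0.28, adjusted p = 4.63e-07). PPARA itself fell, with log2 fold changes of -0.64 under P1-a2 and -0.44 under P2-a8. Neither regulator was called in another line against its control: PPARA was at 19.3 and 19.8 CPM in NC and 18.3 and 21.8 CPM under P1-a2 in BxPC3, and PPARGC1A had at most 11 counts in any library of BxPC3 or ASPC1.

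The isoforms were then compared with each other. In Panc10.05, P1-a2 and P2-a8 differed in 23 of 35 members, 14 higher and 9 lower under P1-a2, beside 46.9% of all genes. Of all genes called there, 47.4% were higher under P1-a2. The largest differences were in ACAA2 (log2 fold change -1.10 ± 0.16, adjusted p = 1.94e-07), which was lower under P1-a2, and in CRAT (0.99 ± 0.08, adjusted p = 6.28e-14), which was higher. Also higher under P1-a2 were PPARGC1A (0.78 ± 0.21, adjusted p = 0.00182), PLIN2 (0.76 ± 0.23, adjusted p = 0.00577), ANGPTL4 (0.70 ± 0.21, adjusted p = 0.00654), SLC25A20 (0.65 ± 0.11, adjusted p = 8.19e-06) and HADHB (0.62 ± 0.06, adjusted p = 3.84e-11). Without P2-a8 replicate 2 the calls of PPARGC1A, PLIN2 and ANGPTL4 were lost (adjusted p up to 0.0606, 0.124 and 0.14 over the alternatives). HSD17B4 was at 80.5 and 85.6 CPM under P1-a2 and 131 and 129 CPM under P2-a8 (log2 fold change -0.65 ± 0.06, adjusted p = 1.09e-11), with NC between them at 113 and 115 CPM.

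In BxPC3 the isoforms differed in 13 members, 11 higher and 2 lower under P1-a2, beside 22.5% of all genes. Of all genes called there, 51.8% were higher under P1-a2. ANGPTL4 (log2 fold change 1.95 ± 0.14, adjusted p = 1.01e-05), SLC25A20 (1.46 ± 0.11, adjusted p = 1.44e-05), ACSL5 (0.92 ± 0.08, adjusted p = 3.79e-05) and CRAT (0.75 ± 0.10, adjusted p = 0.000778) were higher under P1-a2 by the largest amounts. PLIN2, at 12.5 and 10.9 CPM under P1-a2 and 8.81 and 7.72 CPM under P2-a8, differed too (0.50 ± 0.13, adjusted p = 0.0176), but not without P1-a2 replicate 1 or P2-a8 replicate 2 (adjusted p up to 0.102). ECHS1 was higher under P1-a2, at 175 and 185 CPM against 146 and 149.8 CPM (0.29 ± 0.05, adjusted p = 0.00378). HADH, at 45.1 and 46.3 CPM against 59.4 and 56.7 CPM (-0.35 ± 0.06, adjusted p = 0.00314), and ACADS, at 15.5 and 16.1 CPM against 19.1 and 20.1 CPM (-0.31 ± 0.09, adjusted p = 0.0295), were lower under P1-a2. The ACADS call was lost in 8 of 12 alternatives, among them without any 1 of the 6 libraries (adjusted p up to 0.183). SLC25A20, CRAT, ANGPTL4, PLIN2, HADHB, ETFA and ECHS1 were called higher under P1-a2 in both lines, as the plot of isoform differences shows. The share of all genes called so in both lines was not counted. HNF4A itself was higher under P2-a8 in Panc10.05, where the dose differed too. It did not pass the test between isoforms in BxPC3 (log2 fold change -0.33 ± 0.17, adjusted p = 0.217). The part of the HNF4A level in the members' differences was not tested.

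**Figure D3:**
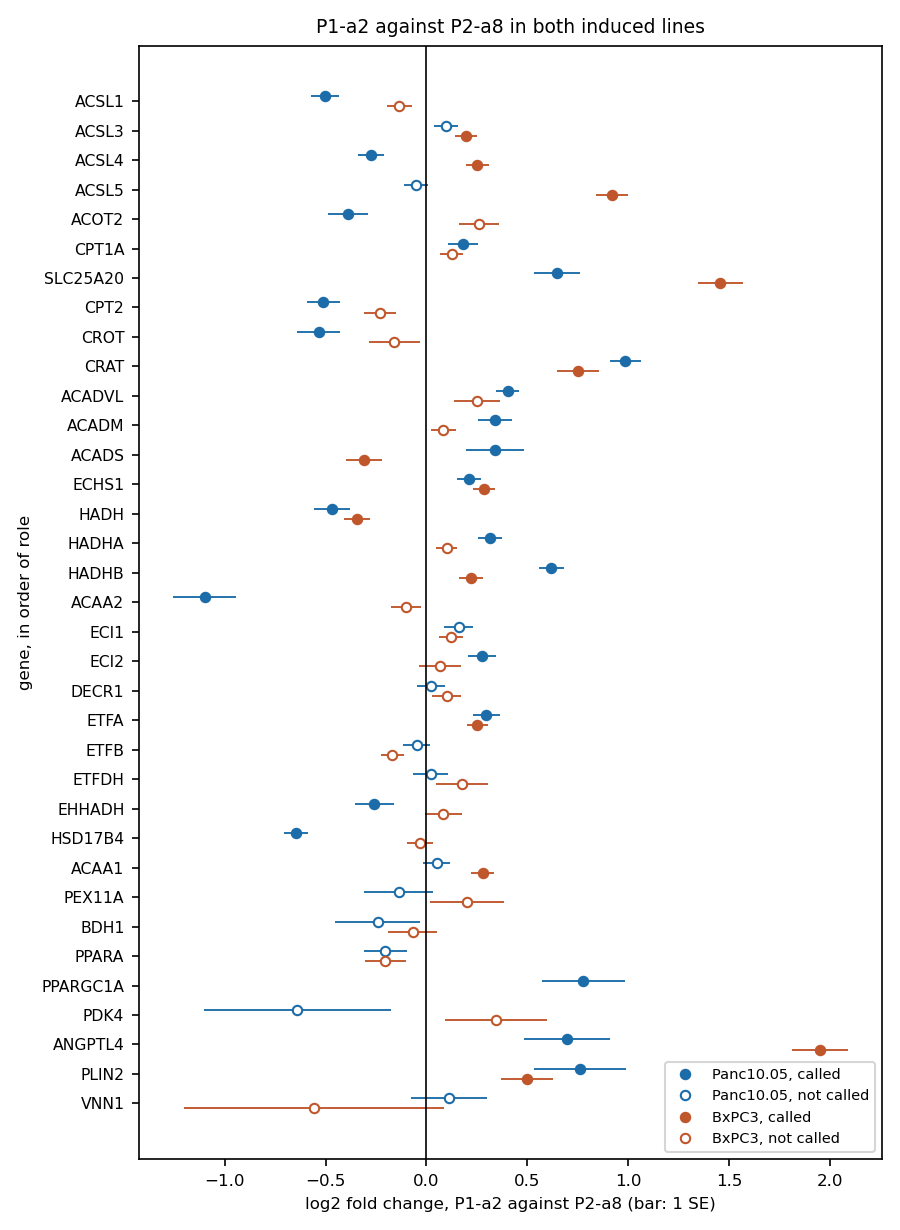
Log2 fold change of each member between P1-a2 and P2-a8 (positive: higher under P1-a2) in Panc10.05 (blue) and BxPC3 (orange), with 1 SE as a bar and filled points where the adjusted p is under 0.05. CRAT lies at 0.99 and 0.75, ANGPTL4 reaches 1.95 in BxPC3, and ACAA2 lies at -1.10 in Panc10.05.

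Whether the lines responded differently was tested as the difference of the log2 fold changes, Panc10.05 minus BxPC3, in a joint fit. Line, control construct, doxycycline dose and sequencing project change together in this test and cannot be told apart. For P1-a2 against NC, 18 members differed, 5 with the larger value in Panc10.05 and 13 with the larger value in BxPC3, beside 36.4% of all genes. Of all genes that differed, 44.7% had the larger value in Panc10.05. CPT1A (1.35 ± 0.10, adjusted p = 3.39e-10) and HADHB (0.85 ± 0.09, adjusted p = 5.27e-08) had the larger value in Panc10.05, and PDK4 (-2.35 ± 0.56, adjusted p = 0.00188), BDH1 (-1.42 ± 0.23, adjusted p = 6.22e-05), ACOT2 (-1.22 ± 0.15, adjusted p = 5.65e-07) and ACSL5 (-1.11 ± 0.10, adjusted p = 6.43e-09) in BxPC3. SLC25A20, ANGPTL4 and CRAT were not among the 18. For P2-a8 against NC, 13 members differed, beside 23.5% of all genes, led by ANGPTL4 (2.42 ± 0.47, adjusted p = 0.000547), CPT1A (1.28 ± 0.10, adjusted p = 2.78e-09), BDH1 (-1.25 ± 0.23, adjusted p = 0.000403) and ACAA2 (1.05 ± 0.15, adjusted p = 1.59e-05). For P1-a2 against P2-a8, 11 members differed, beside 22.3% of all genes.

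Across both lines, 13 members were called higher under P1-a2, which is 76.5% of the 17 higher in Panc10.05 and 68.4% of the 19 higher in BxPC3. Over all genes called the corresponding shares were 29.1% and 52.4%. These were not limited to genes tested in both lines or to genes at the members' levels. The members were also chosen with earlier results of these data known, so the shares do not test the list. The 13 members are ACSL5, CPT1A, SLC25A20, CRAT, ACADM, ECHS1, HADHA, HADHB, ECI2, ETFA, EHHADH, ACAA1 and ANGPTL4. Of these, ACSL5, SLC25A20, ECHS1, ECI2 and ACAA1 were called lower with sgDual, which is 38.5% of the 13 and 45.5% of the 11 members lower with sgDual, beside 30.5% and 15.9% over all genes. HADHB and ANGPTL4 were called higher with sgDual. Without sgNC replicate 1, 4 sgDual calls were left, and of the 5 named that includes ACSL5 and ECI2 but not SLC25A20, ECHS1 or ACAA1. CPT1A, which rose with both isoforms in both lines, was at 345 and 317 CPM with sgNC and 355, 325, 370.4 and 332 CPM with sgDual and was not called (adjusted p = 0.749).

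In ASPC1 the groups with a targeting guide were also compared with each other. Between sgP2 and sgP1, 3 members differed, beside 4.3% of all genes. CRAT was higher with sgP2, at 46.8, 51.3, 47.2 and 49.4 CPM against 29.8, 38.4, 36.9 and 38.7 CPM with sgP1 (log2 fold change 0.44 ± 0.08, adjusted p = 0.00912), as was DECR1, at 49.3, 45.3, 44.9 and 42.0 CPM against 36.0, 34.6, 35.6 and 39.7 CPM (0.32 ± 0.07, adjusted p = 0.0162). PDK4 was lower with sgP2, at 11.9, 14.3, 14.8 and 18.9 CPM against 19.3, 31.3, 25.2 and 40.8 CPM (-0.95 ± 0.23, adjusted p = 0.0383). Without both sgP2D libraries 0 members differed, without both sgP1E libraries 10 did, and without sgP1E replicate 1 or sgP2D replicate 1 the count was 7 or 1. The PDK4 call was lost in 15 of 26 alternatives (adjusted p up to 0.269). That of DECR1 was lost without sgP2D replicate 1, without both sgP2D libraries and with sgP1 and sgP2 fitted alone (adjusted p up to 0.151), and that of CRAT without both sgP2D libraries (adjusted p = 0.0652).

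Against sgP1, sgDual changed 17 members, 6 higher and 11 lower, beside 38.3% of all genes, and against sgP2 it changed 15, 5 higher and 10 lower, beside 46.4%. Of all genes called, 48.5% were higher with sgDual against sgP1 and 49.2% against sgP2. PDK4 was higher with sgDual than with sgP1 (log2 fold change 1.26 ± 0.22, adjusted p = 0.000842) and than with sgP2 (2.21 ± 0.23, adjusted p = 1.07e-05). Lower with sgDual than with sgP1 and than with sgP2 were ACSL5 (-1.09 and -1.64, adjusted p = 0.000392 and 1.02e-05), VNN1 (-1.15 and -1.61, adjusted p = 9.78e-05 and 3.67e-06), SLC25A20 (-0.85 and -1.08, adjusted p = 0.0167 and 0.00323) and BDH1 (-0.73 and -0.79, adjusted p = 0.00338 and 0.00141). EHHADH was at 21.9, 25.6, 24.9 and 23.8 CPM with sgP2 and 12.9, 11.6, 14.3 and 13.5 CPM with sgDual (-0.88 ± 0.14, adjusted p = 0.000115), and PEX11A was higher with sgDual, at 6.08, 7.63, 6.74 and 7.68 CPM against 3.75, 5.18, 4.97 and 5.89 CPM (0.50 ± 0.16, adjusted p = 0.0204). ANGPTL4 (0.90 ± 0.24, adjusted p = 0.00976) was higher and PLIN2 (-0.75 ± 0.25, adjusted p = 0.0309) lower with sgDual than with sgP1. PPARGC1A had at most 2 counts in each sgP2 library and 4 to 8 in the sgDual libraries, at least 1.67-fold higher (adjusted p = 0.0271). Against sgP2 the calls of PEX11A and PPARGC1A were lost in 6 and 7 of 26 alternatives (adjusted p up to 0.144 and 0.176). Against sgP1 that of ANGPTL4 was lost without both sgDual3 libraries (adjusted p = 0.0538) and that of PLIN2 in 9 alternatives (adjusted p up to 0.193). Without both libraries of sgDual2 or of sgDual3 the count against sgP1 was 7 or 6, and it was 11 without sgDual2 replicate 1, sgDual2 replicate 2 or sgDual3 replicate 2.

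Guides of the same target were compared as well. Between sgDual2 and sgDual3, SLC25A20 alone was called, lower with sgDual2 (log2 fold change -1.14 ± 0.17, adjusted p = 0.00365), beside 0.883% of all genes, and the call was lost without sgDual2 replicate 1 (adjusted p = 0.0891). Between sgP2D and sgP2G, beside 1.69% of all genes, PLIN2 was lower with sgP2D, at 4.87 and 5.31 CPM against 11.96 and 11.6 CPM (log2 fold change -1.20 ± 0.13, adjusted p = 0.000134), and ACSL1 was higher (0.84). The sgP2D libraries of PLIN2 lay below all sgDual libraries, which were aimed at both promoters, as the plot by guide shows. Between sgP1E and sgP1J, 5 members differed, beside 14.5% of all genes: ACSL1 (0.69) and EHHADH (0.60) were higher with sgP1E, and ACOT2 (-0.32), CPT2 (-0.40) and PPARGC1A, at 2 and 3 counts against 11 and 11, were lower. These 3 counts rest on single libraries: without sgP1E replicate 1 or sgP1J replicate 2 the sgP1 guides differed in 3 members, without any 1 of the sgP2 libraries other than sgP2G replicate 1, or any 1 sgDual library, the sgP2 guides differed in 1, and without sgDual2 replicate 1 the sgDual guides differed in 0.

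**Figure D4:**
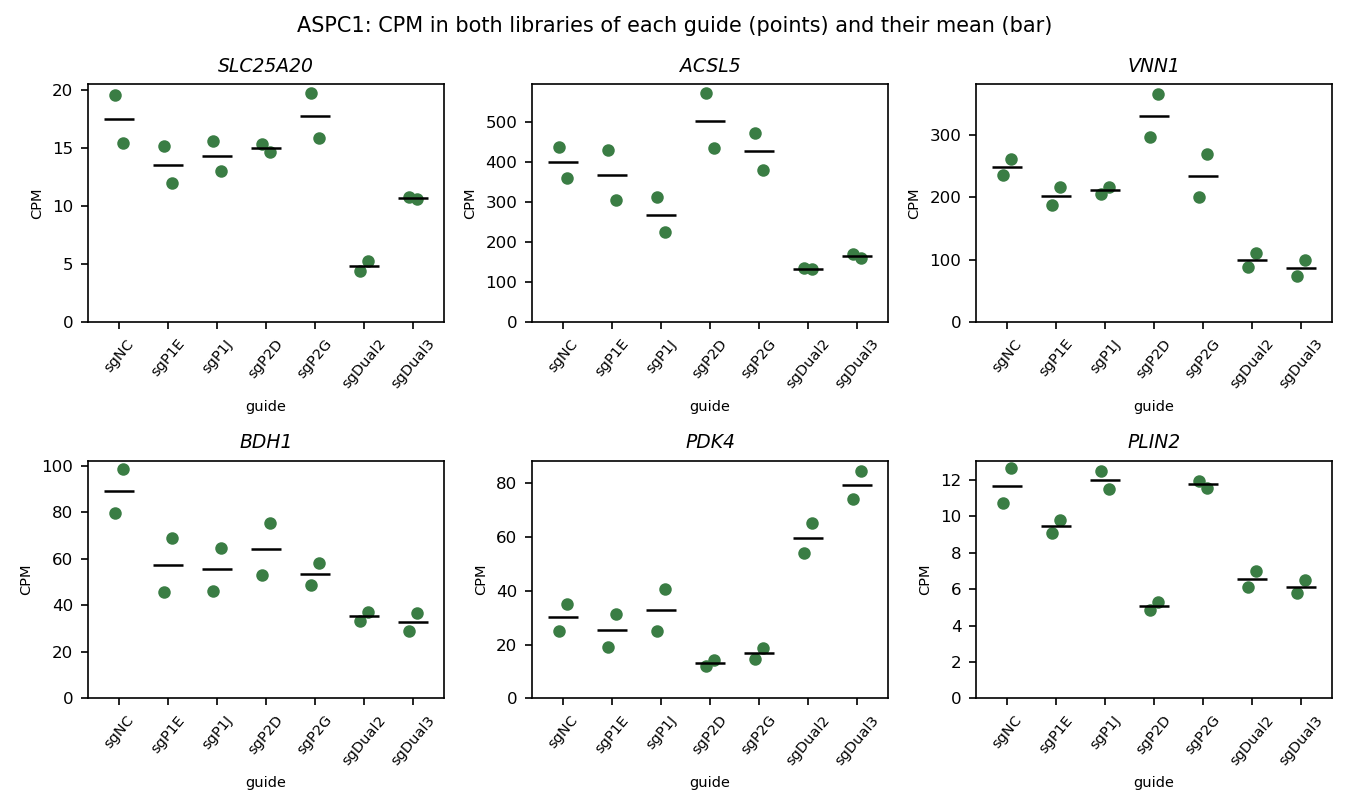
CPM in both libraries of each guide in ASPC1 (points, mean as a bar, linear axis from 0) for 6 members. ACSL5, VNN1 and BDH1 are lowest with sgDual2 and sgDual3, PDK4 is highest there, SLC25A20 is lower with sgDual2 than with sgDual3, and PLIN2 is low with sgP2D and with both sgDual guides but not with sgP2G.

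A second list of 108 genes of the same pathways, not members, was followed by its counts. In Panc10.05, 22 of 89 tested genes rose and 37 fell under P1-a2, and 29 rose and 30 fell under P2-a8, so that 66.3% were called in each, beside 62% and 46.2% of all genes. In BxPC3, 28 of 91 rose and 14 fell under P1-a2 (46.2% called, beside 32% of all genes), and 4 rose and 1 fell under P2-a8 (5.49%, beside 6.99%). In ASPC1, 19 of 91 rose and 22 fell with sgDual (45.1% called, beside 35.6% of all genes). With sgP1 0 rose and 3 fell, and with sgP2 1 rose and 2 fell, which is 3.3% called in each, beside 0.265% and 3.42% of all genes. The 3 that fell with sgP1 were CIDEB, CIDEC and CREB3L3. Calls of single genes of this second list were not followed over the alternative runs. The number of genes called with sgP1 changed when single libraries were left out, as given below. CIDEB, a lipid droplet and lipoprotein assembly protein, was at 0.1201 and 0.0869 CPM in NC and 20.4 and 24.0 CPM under P1-a2 in Panc10.05 (log2 fold change 7.69 ± 0.23, adjusted p = 7.38e-29) and rose in BxPC3 under P1-a2 (1.83 ± 0.11, adjusted p = 5.37e-07). With sgP1 it was at 2.24, 2.95, 1.98 and 2.52 CPM against 9.16 and 10.4 CPM with sgNC (-2.02 ± 0.24, adjusted p = 0.00247), and with sgDual at 0.230, 0.664, 0.179 and 0.599 CPM (-4.53 ± 0.29, adjusted p = 1.23e-07).

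CIDEC, which enlarges lipid droplets, had 0 counts in the NC libraries of both induced lines and was higher under P1-a2 in both: at least 39.0-fold in the first and at least 30.5-fold in BxPC3, against a limit of 3 counts in each control library. It fell with sgP1 (log2 fold change -1.22 ± 0.14, adjusted p = 0.00145) and with sgDual (-3.42 ± 0.15, adjusted p = 4.34e-09). CREB3L3, a membrane-bound transcription factor of liver and intestine, rose under P1-a2 in Panc10.05 (3.58 ± 0.32, adjusted p = 4.68e-13) and BxPC3 (5.24 ± 0.46, adjusted p = 9.04e-06) and fell with sgP1 (-0.61 ± 0.11, adjusted p = 0.0255) and sgDual (-1.23 ± 0.10, adjusted p = 1.26e-06).

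Markers of other cell types were followed beside these results. The 8 epithelial markers were all present in every group, with a summed level of 5932 to 5991 CPM in the NC libraries of Panc10.05, 7693 to 8761 CPM under P1-a2 and 9738 to 10230 CPM under P2-a8. In BxPC3 it was 7781 to 8034 CPM, 10330 to 11040 CPM and 9019 to 9199 CPM, so both induced groups lay above NC in each line. In ASPC1 it was 14360 to 14650 CPM with sgNC, 8336 to 18110 CPM with sgP1, 10240 to 11730 CPM with sgP2 and 11370 to 16030 CPM with sgDual. The summed level of 8 enterocyte markers was 0.504 to 0.579 CPM in the NC libraries of Panc10.05, 58.1 to 63.7 CPM under P1-a2 and 23.7 to 24.8 CPM under P2-a8. In BxPC3 it was 1.94 to 3.35 CPM, 208 to 254 CPM and 65.0 to 68.1 CPM. In ASPC1 it was 2381 to 2394 CPM with sgNC, 1898 to 2165 CPM with sgP1, 2092 to 2565 CPM with sgP2 and 1095 to 1448 CPM with sgDual. In both induced lines it followed the order of SLC25A20, NC below P2-a8 below P1-a2. Between 3 and 6 of the 8 markers had no library of a group above 3 counts, and the part of this list in the members' changes was not tested. The 6 fibroblast markers summed to 165 to 179 CPM with sgNC, 178 to 200 CPM with sgP1, 132 to 168 CPM with sgP2 and 280 to 301 CPM with sgDual. The 6 immune markers summed to 42.4 to 50.7 CPM with sgNC and 57.5 to 83.4 CPM with sgDual, but to less than with sgNC in the other groups: 17.6 to 41.3 CPM with sgP1 and 17.7 to 22.5 CPM with sgP2. The 8 hepatocyte markers summed to 3.48 to 4.69 CPM in the NC libraries of Panc10.05 and 0.457 to 0.668 CPM under P1-a2. Of these 8, 7 in NC and 6 under P1-a2 had no library above 3 counts, so the sums rest on very few genes. In BxPC3 they summed to 31.9 to 32.95 CPM in NC, 22.4 to 22.47 CPM under P1-a2 and 27.5 to 33 CPM under P2-a8, and in ASPC1 to at most 1.14 CPM. The 4 endothelial markers summed to at most 9.12 CPM in any library, and the 4 adipocyte markers to at most 1.47 CPM. The adipocyte sum was 0.349 to 0.353 CPM with sgNC and 0.947 to 1.47 CPM with sgDual. The part of these lists in the members' changes was not tested either. In bulk RNA, fewer cells of a type and less RNA per cell cannot be told apart.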

How the data were processed

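The authors deposited raw read counts per Ensembl gene, in a table for each cell line, for 26 libraries in 10 groups. Per the submitters' processing notes, cutadapt 1.16, STAR 2.7.9a, featureCounts 1.6.3, DESeq2 1.36.0 and the GRCh38 build were used. The annotation release and the strand setting of the counting are not given in the sources used here, so genes that overlap another on the opposite strand are uncertain. Among members these include HADHA, HADHB, ACSL5, CRAT, ECI2, ACAA1, EHHADH, ANGPTL4 and VNN1, and ACOT2 has a near-identical paralog, ACOT1. Library totals were 34618745 to 46827673 counts in Panc10.05, 26369154 to 37483772 in BxPC3 and 26079388 to 50662077 in ASPC1.

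Ensembl identifiers were given symbols from a table of gene names, which covered at least 99.88% of them in each table, and overlaps and exon lengths are from GENCODE v29. The counts were fitted per line with edgeR 4.0.16 (R 4.3.3, limma 3.58.1): filterByExpr, TMM factors, and the robust quasi-likelihood test over all groups of the line, with Benjamini-Hochberg adjustment over all 17247, 17635 and 16992 genes tested in Panc10.05, BxPC3 and ASPC1. CPM are TMM-scaled. Standard errors were taken from the F statistic, as the absolute log2 fold change over its square root. Where all libraries of a group had 3 counts or fewer, the fold is a lower bound against 3 counts in each library. Line differences come from a joint fit of Panc10.05 and BxPC3, and guides of a target from a fit with a group for each guide. The scripts were tested on simulated counts. Figures were drawn with matplotlib 3.10.9.

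Values in every library are given for members that were called and among the 8 largest changes of a comparison, and for up to 3 pathway genes in each direction. Other called members are given by their fold change. The members and the lists were chosen with earlier results of these data known. Alternatives were other scalings (RLE factors, total counts), no filter on low counts, DESeq2 1.42.0, the replicate number as a block, the compared groups alone, and leaving out each library or guide. Apart from HNF4A, calls of single genes that are not members were not followed over them.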

Additional observations from a re-analysis of the deposited data

Results flagged for a closer look

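Among 105 combinations of a member and an ASPC1 group of 4 libraries, 1 held a library far from the others. PPARA in sgDual was at 76.9 CPM in sgDual2 replicate 2, while the other 3 libraries lay between 63.5 and 65.6 CPM. Chance alone gives about 1 such combination in 20.

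Between Panc10.05 and BxPC3, 10 member changes differed by at least 1 on the log2 scale and passed the test of the difference, given as Panc10.05 minus BxPC3. For P1-a2 against NC these were CPT1A (1.35), ACSL5 (-1.11), ACOT2 (-1.22), BDH1 (-1.42) and PDK4 (-2.35). For P2-a8 against NC they were ANGPTL4 (2.42), CPT1A (1.28), ACAA2 (1.05) and BDH1 (-1.25), and for P1-a2 against P2-a8 the gene was ANGPTL4 (-1.25). Line, dose, control construct and sequencing project cannot be told apart in these differences.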

How the results depend on the processing

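Of 181 called member changes followed (each call within a line, and calls between lines or guides of at least 1 on the log2 scale), 106 stayed called in every alternative run, 75 lost the call in at least 1, and 0 changed direction. With 2 libraries in most groups, leaving out 1 leaves a lone library that is assumed to vary like the others, and the cause of the changes below was not tested.

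Leaving out single libraries gave 2 to 14 called members for P2-a8 against NC in BxPC3 and 495 to 1351 called genes (1232 with all libraries), and 2538 to 3640 called genes for P1-a2 against P2-a8 (3963). In ASPC1 it gave 1 to 144 genes for sgP1 against sgNC (45), 0 to 5 members and 57 to 847 genes for sgP2 against sgNC (581), 4 to 19 members and 2775 to 6468 genes for sgDual against sgNC (6048), 1 to 7 members and 324 to 1208 genes for sgP2 against sgP1 (731), and 11 to 17 members for sgDual against sgP1. Between guides it gave 3 to 7 members for sgP1, 1 to 2 for sgP2 and 0 to 1 for sgDual.

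Leaving out both libraries of a guide changed the ASPC1 counts further. For sgP1 against sgNC, 262 genes were called without sgP1E, 1242 genes and 4 members without sgP1J, 27 genes without sgDual2 and 29 without sgDual3. For sgP2 against sgNC the counts were 1524 genes and 5 members without sgP1E, 1707 genes and 5 members without sgP1J, 322 genes and 0 members without sgP2D, and 293, 332 and 364 genes without sgP2G, sgDual2 and sgDual3. For sgP2 against sgP1 they were 2764 genes and 10 members without sgP1E, 306 genes and 0 members without sgP2D, 411 genes without sgP2G and 486 without sgDual2. Without sgDual3, 7 members were called for sgDual against sgNC, and 6 members and 4320 genes (6505 with all) for sgDual against sgP1, where 7 members were called without sgDual2.

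With no filter on low counts, 1982 genes were called for P2-a8 against NC in BxPC3, 81 for sgP1 against sgNC, 2 members for sgP2 against sgNC, 8 members between the sgP1 guides and 3 between the sgDual guides. DESeq2 called 248 genes and 2 members for sgP1 against sgNC, 1148 genes and 4 members for sgP2 against sgNC, and 1272 genes and 8 members for sgP2 against sgP1. With the 2 compared groups alone these comparisons gave 7 genes, then 1103 genes and 4 members, then 189 genes and 1 member. Scaling by total counts moved the median of all genes by at most 0.036 on the log2 scale. With it the share of calls that were higher went from 37.8% to 47.9% for sgP1 against sgNC and from 48.5% to 59.1% for sgP2 against sgNC, and for P2-a8 against NC in BxPC3 from 61.5% to 51.8%. With DESeq2, which changes the test as well as the scaling, the sgP1 share was 56%, and with RLE factors in edgeR it was 39.1%.

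With the replicate number as a block, BxPC3 had 2886 called genes between P2-a8 and NC, and 5992 between both isoforms. In ASPC1 the block gave 127 genes and 2 members for sgP1 against sgNC, 972 genes and 3 members for sgP2 against sgNC, and 1204 genes and 7 members for sgP2 against sgP1. Between guides it gave 16 members for sgP1, 4 for sgP2 and 3 for sgDual. The labels do not say that a number marks shared cultures, and for that reason the main fit did not use the pairing by number. Deviations of same-numbered libraries correlated at -0.0124 to 0.00628 in Panc10.05, 0.0671 to 0.12 in BxPC3 and 0.067 to 0.311 in ASPC1. They were thus positive for every pair in BxPC3 and ASPC1. In ASPC1, pairs among the sgNC, sgP1 and sgP2 guides lay at 0.197 to 0.311. Pairs with an sgDual guide lay at 0.067 to 0.122. Whether same-numbered libraries share an effect was not tested.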

Other observations

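In Panc10.05 G0S2, an inhibitor of triglyceride breakdown, was at 0.865 and 0.522 CPM in NC, 20.7 and 21.7 CPM under P1-a2 (log2 fold change 4.90 ± 0.19, adjusted p = 3.81e-19) and 13.4 and 9.38 CPM under P2-a8 (4.01 ± 0.20, adjusted p = 8.38e-16), while LIPE, the hormone-sensitive lipase, went from 7.23 and 8.78 CPM to 0.976 and 1.15 CPM under P1-a2 (-2.90 ± 0.18, adjusted p = 1.56e-17) and 2.73 and 3.24 CPM under P2-a8 (-1.43 ± 0.16, adjusted p = 5.11e-10). All 3 groups were separate for both genes. CYP4F12, a fatty acid hydroxylase, fell in Panc10.05 under P1-a2, from 1.90 and 2.58 CPM to 0.205 and 0.261 CPM (-3.22 ± 0.32, adjusted p = 1.42e-11), and was not called under P2-a8.

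In ASPC1, ACSF2, a medium-chain acyl-CoA synthetase, was at 1.84 and 3.92 CPM with sgNC and 5.45, 6.30, 9.37 and 10.3 CPM with sgDual (log2 fold change 1.45 ± 0.43, adjusted p = 0.0177). SLC27A3, an acyl-CoA synthetase as well, was at 3.17 and 3.44 CPM and 7.35, 6.41, 7.97 and 6.64 CPM (1.10 ± 0.27, adjusted p = 0.00512). Both rose, opposite to ACSL5 in the same libraries. None of the calls of the non-member genes in this section was followed over the alternative runs.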
